A study of Mus musculus with 4 samples.

Results

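This report describes 35 genes of cholesterol and oxysterol metabolism in mouse T-helper 17 (Th17) cells, the CD4 T cells that secrete interleukin-17 cytokines. The genes were taken by symbol from a list that was fixed with earlier results of these data known. All 35 were found among the 50600 genes counted. The list does not hold every gene of the pathway. RNA was sequenced from primary cells of the C57BL/6NJ strain in 4 libraries of 1 group, numbered as biological replicates 1 to 4, with 1 donor label shared by all. Age and developmental stage are given as unknown, no treatment other than a linked differentiation protocol is named, and each library is marked 72 hr and Sorted in its header. The labels do not say whether separate animals or cultures were used, so a p-value here measures the spread between these libraries, which may be technical.

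Cells make cholesterol from acetyl units by the mevalonate pathway, whose products also feed protein prenylation, and then by a chain of sterol intermediates. The transcription factors SREBP1 and SREBP2 are held in the endoplasmic reticulum by SCAP and INSIG proteins when sterols are plentiful, and switch on synthesis genes when sterols are scarce. Oxysterols, which are hydroxylated forms of cholesterol, activate the liver X receptors, and these induce export pumps. In Th17 cells the pathway is known because late sterol intermediates bind ROR gamma t, the nuclear receptor that directs the lineage.

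Total counts ran from 9382661 in replicate 3 to 34542693 in replicate 1, a 3.68-fold range. Values are TPM, each gene's share of all transcripts, computed from the deposited counts and exonic lengths, so that genes can be compared per length. T-cell and Th17 markers were high: the 6 T-cell genes summed to 4143 to 4410 TPM and the 5 Th17 genes to 18330 to 22026 TPM across libraries. Of 10 macrophage and monocyte genes, 1 reached 1 TPM in every library, Cd68, and C1qa, C1qb and Fcgr1 had 0 counts. The 10 summed to 5.32 to 10.7 TPM, with the lowest sum in replicate 3 and the highest in replicate 2. The CD8 T-cell gene Cd8a had 4 counts in all, whereas Cd8b1 had 13.4 ± 1.96 TPM (SD, n = 4). The dendritic, B-cell and stromal lists each summed to less than 1 TPM, at most 0.418, 0.686 and 0.717 TPM, with H2-Aa, Ms4a1 and Col3a1 at 0 counts.

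All 19 listed enzymes of synthesis were measured in every library, while the 3 oxysterol enzymes were near or below 1 TPM. Of the 35 genes, 31 had at least 1 TPM in every library, a share of 88.6%, beside 47.6% of all 21764 protein-coding genes. A mean of at least 100 TPM was reached by 12 of the 35, beside 9.41% of protein-coding genes. The median over the 35 genes was 55.05 ± 1.08 TPM (SD, n = 4), and the median over the 10367 protein-coding genes with at least 1 TPM in every library was 31.9 ± 0.374 TPM. The 35 genes together took 0.387% ± 0.0138 of all counts, and the 19 synthesis enzymes 0.205% ± 0.00701.

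**Figure D1:**
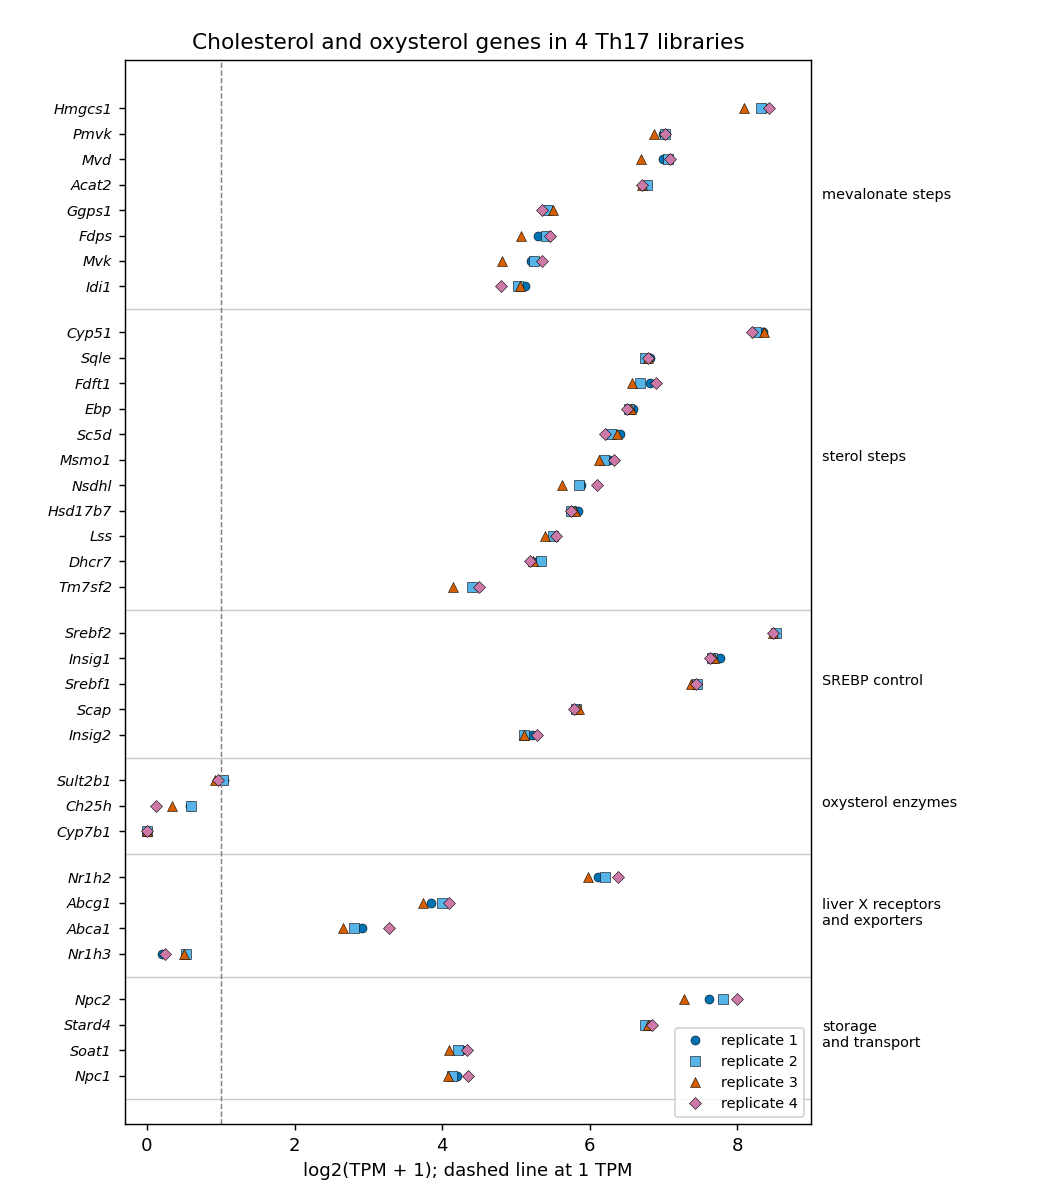
Level of each of the 35 genes in the 4 libraries, as log2(TPM + 1) on the horizontal axis, grouped by role; each symbol is a library and the dashed line marks 1 TPM. The 19 synthesis enzymes and the 5 genes of SREBP control lie to the right of the line in every library, while the 3 oxysterol enzymes and Nr1h3 lie on it or to its left.

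The 8 mevalonate genes spanned 31.1 to 315 TPM, with Hmgcs1 the highest. Hmgcs1, the cytosolic synthase that makes HMG-CoA (ENSMUSG00000093930.1, chr13:119690462-119708086, mm10), had 327, 318, 271 and 343 TPM in replicates 1 to 4. It was lowest in replicate 3. Acat2, which condenses acetyl-CoA ahead of it, had 109, 109, 104 and 103 TPM, all within 1.06-fold of each other. Mvk and Pmvk, the kinases that phosphorylate mevalonate in turn, stood apart from each other at 34.96 ± 5.45 and 125 ± 6.39 TPM (SD, n = 4). Mvd, the decarboxylase that follows, had 124 ± 15.0 TPM and Idi1, the isomerase of the isoprenoid unit, 31.1 ± 3.02 TPM. Mvk had 36.0, 37.0, 27.1 and 39.7 TPM in replicates 1 to 4, and Mvd 126, 133, 102 and 135 TPM. In both genes replicate 3 lay below the other libraries.

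Fdps makes farnesyl diphosphate, from which the sterol and the prenylation branches divide. Its level was 38.8 ± 4.64 TPM (SD, n = 4), but this value is set low by the counting. A neighbouring annotation, Gm43738, covers 26.7% of its exonic bases on the same strand, and reads over several genes were not counted. With the shared bases left out of its length it had 53.0 ± 6.33 TPM. Ggps1, which leads into prenylation, had 42.0, 41.7, 44.3 and 39.7 TPM in replicates 1 to 4. Fdft1, squalene synthase, which leads into sterols, had 111, 101, 94.2 and 118 TPM. The ranges did not overlap, and Fdft1 exceeded Ggps1 by 1.32 ± 0.203 log2 units.

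The 11 sterol-step genes spanned 19.7 to 311 TPM and were led by Cyp51, the lanosterol demethylase (ENSMUSG00000001467.5, chr5:4081145-4104746, mm10). Cyp51 had 323, 303, 326 and 293 TPM in replicates 1 to 4, and its range overlapped that of Hmgcs1. Sqle, the squalene epoxidase, had 109 ± 2.10 TPM and Lss, which closes the ring system, 43.9 ± 2.01 TPM. Msmo1 and Nsdhl, which remove methyl groups from sterols, had 74.1 ± 4.61 and 57.7 ± 7.84 TPM, and Hsd17b7, the ketoreductase of the same complex, 54.2 ± 1.74 TPM. Ebp, the isomerase that moves the ring double bond, had 92.4 ± 2.47 TPM. Sc5d, a desaturase, had 78.9 ± 4.81 TPM and Dhcr7, the last reductase of the lathosterol route, 37.4 ± 1.81 TPM (SD, n = 4 throughout). Tm7sf2, a sterol reductase, was the lowest of the 19 synthesis enzymes by exonic length, at 19.7 ± 2.13 TPM. Of its exonic bases, 15.3% are shared with Vps51 on the same strand.

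Among the genes of SREBP control, Srebf2 had the highest mean TPM of all 35 genes by exonic length. Srebf2, which encodes the SREBP factor tied mainly to cholesterol synthesis (ENSMUSG00000022463.7, chr15:82147266-82205376, mm10), had 360, 367, 357 and 357 TPM in replicates 1 to 4. Srebf1, tied mainly to fatty acid synthesis, had 170, 174, 164 and 173 TPM. The ranges did not overlap, and Srebf2 was 2.12-fold above Srebf1 in mean TPM. Insig1, itself a sterol-repressed SREBP target that retains SCAP, had 215, 201, 205 and 196 TPM, and its paralogue Insig2 had 36.3, 33.4, 33.5 and 37.9 TPM. Insig1 was thus 5.79-fold above Insig2. Scap, the escort of SREBP proteins, had 55.4 ± 1.25 TPM (SD, n = 4).

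Of the oxysterol enzymes, Cyp7b1 and Ch25h were at or near the floor of detection and Sult2b1 was close to 1 TPM. Cyp7b1, the hydroxylase that acts on oxysterols, had 0 counts in all 4 libraries. Since a count of 0 allows up to 3 counts, its level was at most 0.132 TPM in replicate 1 and 0.486 TPM in replicate 3 (counting error only). Ch25h, which makes the oxysterol ligand precursor of the receptor GPR183 (ENSMUSG00000050370.4, chr19:34473786-34475135, mm10), had 7, 5, 1 and 1 counts. Its pooled level was 0.353 TPM with an exact Poisson interval of 0.193 to 0.593 TPM (95%). Sult2b1, a sulfotransferase of cholesterol and oxysterols, had 44, 30, 10 and 33 counts, or 0.988 ± 0.0822 TPM (SD, n = 4).

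Of the liver X receptors, Nr1h2 (LXR beta) was measured and Nr1h3 (LXR alpha) was near the floor. Nr1h2 had 68.4, 72.7, 61.9 and 82.1 TPM in replicates 1 to 4 (ENSMUSG00000060601.13, chr7:44549616-44553951, mm10). Nr1h3 had 4, 8, 3 and 4 counts, a pooled 0.257 TPM with an interval of 0.155 to 0.402 TPM (95%, exact Poisson). No library of one overlapped a library of the other. A pseudogene named after Nr1h2 is annotated, and reads that fit both equally were not counted. Nr1h3 is also expressed by macrophages, whose marker sums are given above. The export pumps that liver X receptors induce were low. Abcg1 had 13.5, 14.9, 12.3 and 16.1 TPM and Abca1 6.55, 5.99, 5.32 and 8.73 TPM.

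Storage and transport genes were unequal. Npc2, the soluble protein that hands lysosomal cholesterol to the membrane protein NPC1 (ENSMUSG00000021242.8, chr12:84754560-84773112, mm10), had 196, 224, 154 and 255 TPM in replicates 1 to 4. Npc1 had 17.3, 16.5, 15.9 and 19.4 TPM, so that Npc2 was 12-fold above it in the mean. Soat1, which esterifies cholesterol for storage, had 17.8 ± 1.32 TPM, and Stard4, a cytosolic sterol carrier, 110 ± 3.00 TPM (SD, n = 4).

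The 7 gene pairs were compared within each library on the scale of log2(TPM + 1). The differences were 1.08 ± 0.0292 for Srebf2 minus Srebf1, 2.50 ± 0.108 for Insig1 minus Insig2 and 5.80 ± 0.288 for Nr1h2 minus Nr1h3 (SD, n = 4). They were 3.49 ± 0.223 for Npc2 minus Npc1 and 1.00 ± 0.163 for Abcg1 minus Abca1. These 5 pairs and that of Fdft1 and Ggps1 were positive in 4 of 4 libraries. Cyp7b1 minus Ch25h was -0.41 ± 0.227, negative in 4 of 4 libraries, but both genes lay at or close to the floor. For each pair a two-sided exact permutation test, flipping the signs of the 4 differences, gave p = 0.13, also after Benjamini-Hochberg adjustment over the 7 pairs. With 4 libraries no smaller p is possible, so no pair could reach 0.05. Several sizes depend on gene length or on the pseudocount. With no correction for length, on CPM, Abcg1 minus Abca1 turned to -0.23 and Npc2 minus Npc1 was 1.83. With principal transcript lengths, an alternative added after seeing the data, Npc2 minus Npc1 was 2.48 and Srebf2 minus Srebf1 was 0.69. Nr1h2 minus Nr1h3 was 3.84 with a pseudocount of 5 and 7.56 with 0.1.

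**Figure D2:**
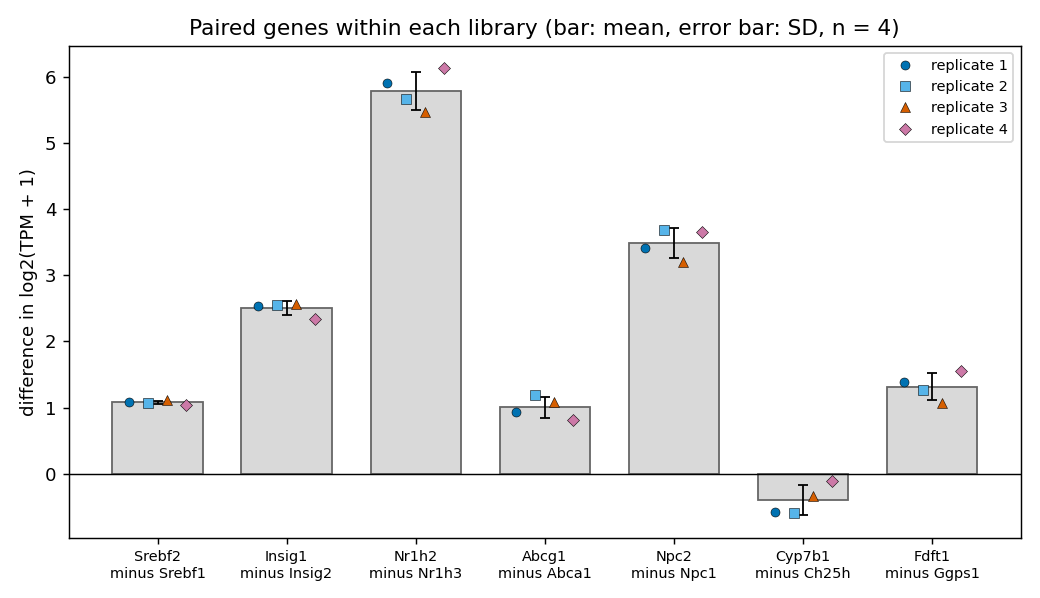
Difference in log2(TPM + 1) between the genes of each of the 7 pairs, within a library; bars are means, error bars SD (n = 4) and symbols the libraries. Nr1h2 minus Nr1h3 is the tallest bar at 5.80 and Cyp7b1 minus Ch25h is the bar below 0.

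The order of the 35 genes was firm only in places. Between neighbours in the order of mean TPM, 12 of 34 pairs had ranges that did not overlap. Srebf2 lay above Hmgcs1, and Cyp51 above Npc2, in every library, whereas Hmgcs1 and Cyp51, Npc2 and Insig1, and Sqle, Fdft1 and Acat2 overlapped. The order also depends on gene length, since the exonic length adds up the exons of all isoforms. With the length of the principal transcript instead, 5 of 34 genes with a count moved by over 1.5 times: Lss to 69.7 TPM, Tm7sf2 to 32.1, Msmo1 to 153, Fdps to 81.3 and Sult2b1 to 2.25 TPM. Tm7sf2 was then above Idi1 at 24.8 and Ggps1 at 28.8 TPM, so it was no longer the lowest synthesis enzyme. Genes whose length stays the same, such as Srebf2 and Npc2, then read 0.687 times as high, because TPM is a share of the whole. Against such genes, more than those 5 moved by over 1.5 times. Sqle, Npc1 and Dhcr7, for example, read 1.38, 1.41 and 1.42 times as high. Srebf2 was first by mean under either length, and Npc2 fell from 4th place to place 8. With principal lengths the first place was not firm, at 247 ± 3.04 TPM for Srebf2 and 240 ± 12.4 TPM for Cyp51 (SD, n = 4).

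The other genes of the pathway, 28 in a list that the members do not overlap, were measured on the same scale. At least 1 TPM in every library was reached by 20 of 28, and the 28 had a median of 26.0 ± 0.602 TPM (SD, n = 4). Among the 5 highest were Acly at 490 ± 28.6 TPM, which supplies cytosolic acetyl-CoA, the sterol transporter gene Gramd1a at 157 ± 1.04 TPM, and Lbr, a sterol reductase of the nuclear envelope, at 151 ± 8.26 TPM. Those with a mean below 1 TPM were 6, namely the hydroxylase genes Cyp27a1, Cyp46a1 and Cyp39a1, the oxysterol-handling Hsd3b7, and the sterol exporters Abcg5 and Abcg8. Abcg5 and Abcg8 had 0 counts. Gpr183, the receptor for the oxysterol made downstream of CH25H and CYP7B1, was measured at 55.4 ± 4.85 TPM.

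Sequence before the start site was compared next, since it is a feature that the list did not use. RefSeq promoters (250 bases before to 50 after a start, GRCm38.p6) were found for 28 of the 35 genes. Some genes have several entries, so shares are given per promoter and per gene. The word CCAAT, on either strand, occurred in 22 of the 38 promoters of these genes (57.9%) and in 37.4% of all 32851 promoters. Per gene it occurred in 21 of the 28, in 15 of the 16 synthesis genes with an entry, and in 41.1% of all 27025 genes. Among genes with at least 1 TPM in every library it occurred in 21 of 25 and in 43.6% of 8334 protein-coding genes. The word GGGCGG occurred in 22 of the same 25 and in 71.2% of the 8334, and per promoter in 26 of 38 and 35.7%. CACGTG occurred in 6 of the 25 and in 12.3% of the 8334, and per promoter in 7 of 38 and 7.15%. The word TCACNCCAC, a core of the element that SREBP proteins bind, occurred in 1 of the 25, Hmgcs1, and in 1.38% of the 8334, and per promoter in 1 of 38 and 1.24%. A relaxed form of the SREBP word, TCANNCCAC, added after the first search, was also found in Hmgcs1 alone of the 25, and in 4.48% of the 8334, and per promoter in 1 of 38 and 4.18%. CCAAT is known as the word bound by NF-Y, GGGCGG by SP1 and CACGTG by E-box factors. All words were searched on both strands and were chosen after results were seen, their matches may overlap one another, and no test was made.

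To show where the CCAAT words lie, the 180 bases before the start are printed for the 4 most abundant of the 35 genes whose stretch holds CCAAT and touches no annotated exon. This choice requires the word, so its presence in these 4 is no finding. Capitals mark CCAAT or its reverse complement and, in Hmgcs1, the SREBP core word. Each is written 5′ to 3′ on the strand of its gene, from RefSeq, build GRCm38.p6: Hmgcs1 from chr13:119690171-119690350 (plus strand), Srebf1 from chr11:60222582-60222761 (minus), Pmvk from chr3:89454361-89454540 (plus) and Mvd from chr8:122443423-122443602 (minus). Hmgcs1 holds the SREBP word between a pair of CCAAT words, and Mvd holds CCAAT in either direction.
Hmgcs1: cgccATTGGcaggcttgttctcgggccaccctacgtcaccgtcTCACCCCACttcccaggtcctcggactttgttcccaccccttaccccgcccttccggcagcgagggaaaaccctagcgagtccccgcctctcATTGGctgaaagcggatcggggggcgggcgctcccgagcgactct
Srebf1: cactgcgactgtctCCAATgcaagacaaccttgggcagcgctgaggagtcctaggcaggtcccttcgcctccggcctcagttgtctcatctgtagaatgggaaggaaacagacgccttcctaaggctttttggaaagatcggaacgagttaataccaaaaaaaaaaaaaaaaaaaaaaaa
Pmvk: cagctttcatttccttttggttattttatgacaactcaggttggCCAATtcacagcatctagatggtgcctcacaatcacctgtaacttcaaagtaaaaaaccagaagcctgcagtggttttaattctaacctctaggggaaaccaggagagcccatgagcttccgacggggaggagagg
Mvd: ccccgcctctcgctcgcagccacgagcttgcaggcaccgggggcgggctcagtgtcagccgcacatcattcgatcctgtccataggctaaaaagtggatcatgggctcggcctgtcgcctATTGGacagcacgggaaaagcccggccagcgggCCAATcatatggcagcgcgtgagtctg

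The spread between libraries was then asked gene by gene, within a fit of all 12156 genes that passed a filter on low counts. Of the 35 genes, 32 passed it, and Ch25h, Cyp7b1 and Nr1h3 did not. None of the 32 was called variable beyond the trend of its abundance (edgeR quasi-dispersion test, adjusted p under 0.05). Of all genes tested 0.00823% were called, which is 1 gene. With so few calls among 12156 genes, a gene that was not called may still vary between libraries. At an unadjusted p under 0.05 there were 2 of 32, Npc2 and Abca1, a share of 6.25%, beside 4.9% of all genes. DESeq2 marked none of 34 genes with a count as dispersion outliers, beside 0.521% of all genes with a count.

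Npc2 had the smallest p of the 32, at 0.00628 unadjusted and 0.727 adjusted (edgeR quasi-dispersion test). In CPM, the TMM-normalised count scaled to library size, it had 194, 223, 156 and 252 in replicates 1 to 4, a 1.62-fold range with a coefficient of variation (CV) of 19.98%. Counting error alone would give 1.71%. Its adjusted p ran from 0.0428 with no filter on low counts to 0.986 without replicate 2 in the same edgeR test. The summed macrophage and monocyte markers were 7.39, 10.7, 5.32 and 9.25 TPM in replicates 1 to 4, also lowest in replicate 3, and their part in the Npc2 values was not tested. Most of the sum came from Cd68, with 5.38, 8.02, 4.19 and 6.72 TPM, and Cd14, with 1.76, 2.55, 0.67 and 1.96 TPM, both lowest in replicate 3. Of the other 8 markers, C1qa, C1qb and Fcgr1 were at 0 counts and the rest had means below 1 TPM. Abca1 had 20.6, 19.0, 17.0 and 27.4 CPM, with a CV of 21.5% and the highest value in replicate 4. Its unadjusted p was 0.0466, and 0.331 without replicate 4.

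At the other end, the SREBP factors hardly differed between libraries. Srebf2 had 545, 559, 550 and 539 CPM, a CV of 1.55% where counting error would give 0.987%. The CV was 2.02% for Srebf1, 1.87% for Sqle, 2.28% for Stard4 and 3.09% for Scap. In all, 12 of the 32 genes (37.5%) had a CV under 5%, beside 26.9% of all genes tested, with no allowance for abundance. A quasi-dispersion at or below its trend, which allows for abundance, was found in 15 (46.9%), beside 53.3%. The median CV was 6.10% over the 32 and 7.91% over all genes tested. The CV was above that of counting error in 31 of 32 genes, beside 80.3% of all genes tested, again with no allowance for abundance. The exception was Sult2b1, with 10 to 44 counts a library.

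**Figure D3:**
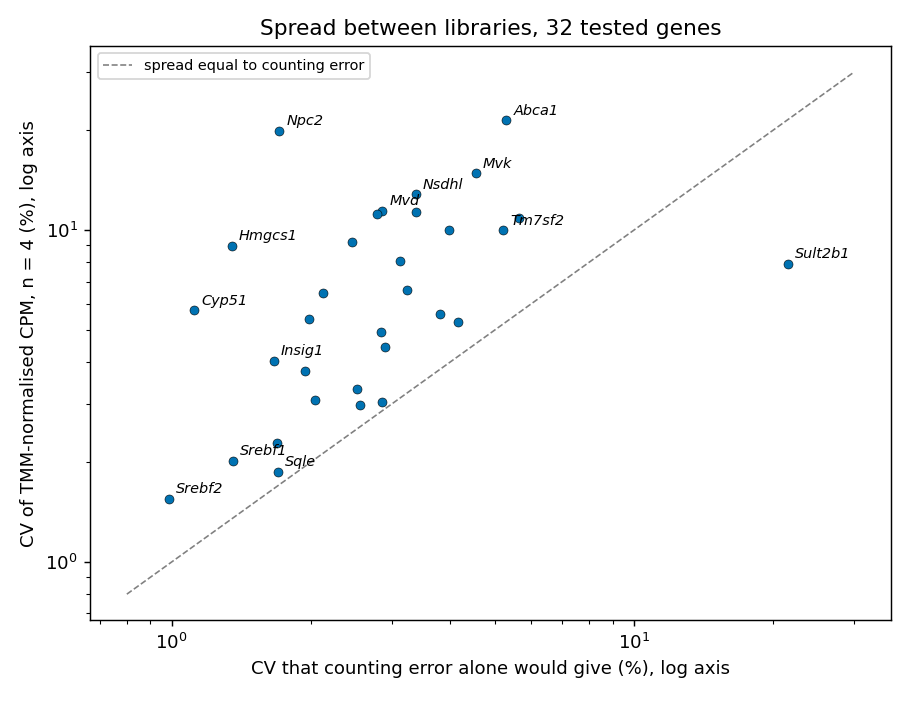
Observed CV of TMM-normalised CPM over 4 libraries against the CV that counting error alone would give, both in % on log axes, 1 point per gene (32 genes). Npc2, at 19.98% against 1.71%, lies farthest above the dashed line of equal values, and Sqle, at 1.87% against 1.70%, lies close to it.

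The libraries that were extreme were replicates 3 and 4. Replicate 3 was the lowest library for 18 of the 32 genes, beside 34.2% of all genes tested, and the highest for 3, beside 33.9%. Replicate 4 was the highest for 17, beside 33.2%, and the lowest for 11, beside 32.9%. The order with replicate 4 highest and replicate 3 lowest was found in 15 of 32 genes (46.9%), beside 20.5% of all genes. The reverse order was found in 3, Ggps1, Cyp51 and Scap, beside 20.6%. Replicate 3 is also the library with the fewest counts, and the part of depth in this order was not tested.

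Within the synthesis branch the enzymes did not share 1 order of libraries. Those with replicate 4 highest and replicate 3 lowest were 9 of 19, beside 20.5% of all genes tested. They were Hmgcs1, Mvk, Mvd, Fdps, Fdft1, Lss, Tm7sf2, Msmo1 and Nsdhl. Nsdhl, for example, had 50.2, 49.6, 42.7 and 58.4 CPM in replicates 1 to 4. Among the other 10, Ggps1 and Cyp51 alone had the reverse order, beside 20.6% of all genes tested. Sqle, Acat2 and Ebp, also among the 10, differed between libraries by at most 1.07-fold. Idi1 was lowest in replicate 4, with 36.1, 33.8, 34.9 and 28.5 CPM, as was Sc5d, with 124, 115, 122 and 108 CPM. Hmgcs1 and Cyp51, the most abundant enzymes of their branches, thus took opposite orders, with 321, 314, 271 and 335 CPM for Hmgcs1 and 434, 408, 445 and 391 CPM for Cyp51. The remaining genes with replicate 4 highest and replicate 3 lowest were Nr1h2, Abca1, Abcg1, Soat1, Npc1 and Npc2. Across the 15 genes, the highest library exceeded the lowest by 1.09-fold to 1.62-fold, and none passed the test of spread.

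Each library was also set against the average of the remaining 3 on the scale of log2(CPM + 1). The median difference of the 32 genes was -0.10 for replicate 3 and 0.05 for replicate 4. Replicates 1 and 2 had medians of 0.04 and 0.01. The 24 tested genes of the other pathway list had medians of -0.05 for replicate 3 and -0.00042 for replicate 4. Of these 24, 11 (45.8%) were lowest in replicate 3, beside 34.2% of all genes tested. Those highest in replicate 4 were 9 (37.5%), beside 33.2%. The median over all tested genes was between -0.0010 and 0.0020 in each library, since TMM normalisation sets it close to 0. With library totals only, it was -0.028 for replicate 3 and 0.024 for replicate 4. The 32 genes then had medians of -0.124 and 0.070. The 3 tested genes of the liver X receptor group had medians of -0.24 for replicate 3 and 0.26 for replicate 4. For the 4 of storage and transport these were -0.15 and 0.17. The 8 mevalonate genes were at -0.19 and 0.10, whereas the 11 sterol-step genes were at -0.03 and -0.02 and the 5 of SREBP control at 0.01 and -0.03. The difference between these groups was not tested.

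**Figure D4:**
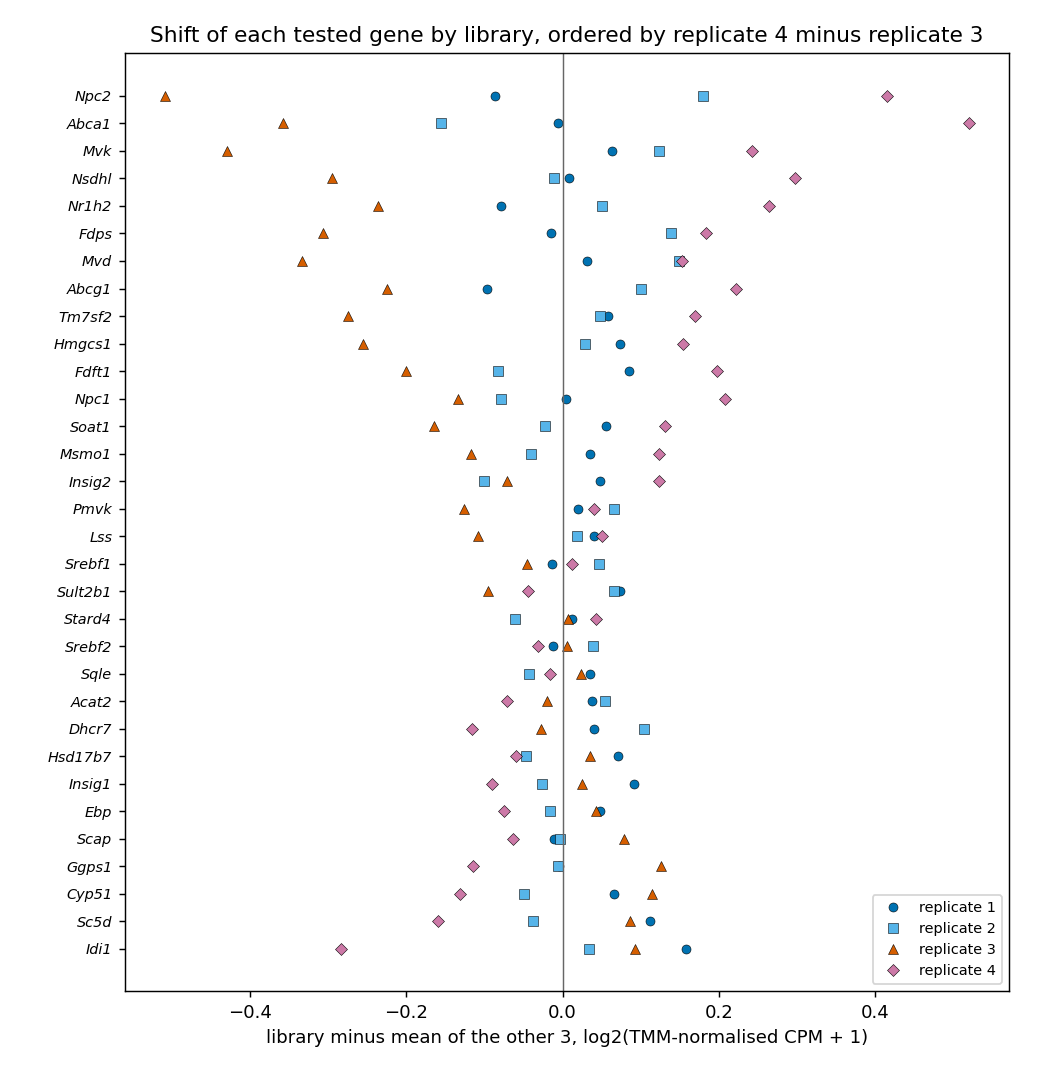
Shift of each of the 32 tested genes in each library, as the library minus the mean of the other 3 in log2(TMM-normalised CPM + 1); symbols are libraries, and genes are ordered by replicate 4 minus replicate 3. Replicate 3 lies left and replicate 4 right for the genes in the upper part, led by Npc2, Abca1 and Mvk, and the order turns for Idi1, Sc5d and Cyp51 at the foot.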

How the data were processed

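RNA from Th17 cells was sequenced in 4 libraries. Per the file headers, the deposited values are raw counts of read pairs, which featureCounts 1.4.6-p4 assigned to genes by the exons of GENCODE mouse release 13, with strand option 2. Per the file headers, no option to count reads that map to several places or overlap several genes was set, so genes with such reads read too low. The build is mm10 per the labels, and the aligner's settings are not given in the sources used here. The exonic length per gene is likewise the authors' deposited column. The labels call the assay total RNA-seq but link a poly(A)-selected library protocol.

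Symbols came from GENCODE mouse release 21, where 50376 of 50600 identifiers matched. TPM were computed here from counts and exonic lengths, with a pseudocount of 1 on the log2 scale. The spread was tested with edgeR 4.0.16 (TMM, filterByExpr, intercept alone): each quasi-dispersion was divided by its trend and referred to the F distribution, with Benjamini-Hochberg adjustment over 12156 genes. DESeq2 1.42.0 was an alternative. Intervals and floors (3 counts) cover counting error only. Every one of the 35 genes is named. Of the other 28 genes, the rule names the 5 highest and those with a mean below 1 TPM, some of which are not reported here, and Gpr183 was added after its value was seen. Genes and lists were chosen with earlier results of these data known.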

Additional observations from a re-analysis of the deposited data

Results flagged for a closer look

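Of 43 values checked for a library far from the others (35 gene levels, 7 pair differences and the median), 1 stood out, where chance flags about 5%. The Insig1 minus Insig2 difference was 2.34 log2 units in replicate 4, against 2.54, 2.56 and 2.57 in replicates 1 to 3. Insig1 was lowest and Insig2 highest in that library.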

How the results depend on the processing

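The number of genes with at least 1 TPM in every library stayed at 31 or 32 under the settings run, and at 31 without any 1 library. The median over the 35 genes was 55.05 TPM, and was 50.4 with exon lengths less 200 bases, 59.0 with protein-coding nuclear genes alone in the denominator, 65.96 with principal transcript lengths (added after seeing the data) and 67.1 as CPM with no length correction. Leaving out 1 library gave 54.6 to 55.4. With no filter on low counts, 1 of the 34 listed genes with a count, Npc2, was called variable, beside 126 of all 21299 genes with a count. The number of listed genes called was 0 under the other settings. Of 70 pair values, 1 reversed: Abcg1 minus Abca1 was -0.23 with no length correction, which follows from the longer exons of Abca1. The pseudocount moved the pairs with a gene near the floor most: Nr1h2 minus Nr1h3 ran from 3.84 to 7.56. None of the 20 shift values moved by more than the spread over libraries. Of the single genes, 64 of 109 values under other lengths or denominators moved by over 1 SD. Leaving out 1 of 4 libraries cannot move a mean by that much, so the 0 of 140 found there carries no information. No paired analysis was possible because there is 1 group. Depth limits what can be said of Ch25h, Cyp7b1, Nr1h3 and Sult2b1, and replicate 3 sets the highest floor.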
